A study of Homo sapiens with 55 samples.

Results

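MAP3K7 encodes TAK1, a kinase that is switched on by receptors for TNF, IL-1, Toll-like ligands and TGF-beta. TAK1 works in a complex with the adaptor proteins TAB1, TAB2 and TAB3, and passes the signal to the IKK complex, which releases NF-kappaB, and to the kinases that activate JNK and p38. The use of a cryptic 3' splice site upstream of one of its exons is a known change in blood cancers with mutant SF3B1, the subunit of the U2 snRNP that helps to select the branch point of an intron. In the deposited tables of splicing events, the events of MAP3K7 were taken as those of the minus strand of chromosome 6 (build hg19) that lie wholly within the span of the gene. This gave 6 events of 110816 with coordinates, between 91226400 and 91296483: a choice between acceptors, a choice between donors, a retained intron and 3 skipped exons. The gene was chosen for the values of its cryptic acceptor in the SF3B1 mutant libraries, so those values are a description here and carry no test.

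The RNA came from the leukemia line K562 and from 293T, a human embryonic kidney line. Cells carried a CRISPR guide against GPATCH8 (sgGPATCH8) or SUGP1 (sgSUGP1), or sgRenilla, a control guide whose target, a luciferase gene, human cells do not have. GPATCH8 and SUGP1 encode proteins with a G-patch, a domain that binds RNA helicases, and SUGP1 is a known partner of SF3B1. In the SF3B1 panel, K562 cells with the K700E mutation knocked in and WT cells each had 2 sgGPATCH8 libraries (guides 16 and 17), 2 sgSUGP1 libraries (guides 3 and 4) and 1 sgRenilla library, and every library had values from 2 sequencing runs, which were averaged. In the SRSF2 and U2AF1 panels, K562 cells overexpressed the mutant SRSF2 P95H or U2AF1 S34F, or the WT form of the same factor, and each form had 3 sgGPATCH8 and 3 sgRenilla libraries. The 293T panel had 4 sgSUGP1 libraries and 4 sgGPATCH8 libraries (2 of each guide) and 2 sgRenilla libraries. The labels give sgRenilla in 293T cells under the name WT-1 only and the targeted cells under WT-1 and WT-2. If these names stand for different cells, every 293T comparison is touched by that difference.

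For each event the tables hold the fraction of the isoform listed first, here given in percent, in steps of 1 point per column. The reads behind a fraction are unknown, so no counting interval could be given, and a fraction says nothing of how much MAP3K7 RNA a cell held. Nothing in the labels says that replicates came from separate cultures, so p-values measure the spread between these libraries, which may be technical. In the SF3B1 panel the libraries of a target carried different guides, so spreads and p-values there also hold differences between guides. Differences are given in percentage points, and tests with limma on the log2 ratio of used over not used, with p-values adjusted over all tested events of a panel by the Benjamini-Hochberg method. An event was called where the adjusted p was under 0.05 and the difference at least 5 points. The replicate 1 libraries of the U2AF1 panel stood apart: their deviations from the group means correlated at 0.24 to 0.40 with one another. With those of replicates 2 and 3 they correlated at -0.24 to -0.13. Deviations within a group cancel out, so this is no separate observation. The results of that panel are therefore also given without the replicate 1 libraries, an alternative chosen after the data were seen.

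The acceptor event lies in intron 4 of the gene, by exon number of the annotated transcript MAP3K7-204, which has 17 exons. Its usual junction runs from 91269933 to 91271341 and its cryptic junction from 91269953 to 91271341 (chromosome 6, hg19), so the cryptic site lies 20 bases upstream of exon 5 and leaves 20 bases of intron in the mRNA. As 20 is not a multiple of 3, the reading frame of exon 5 shifts. Read from the annotated transcript in the shifted frame, the first stop codon comes 48 bases into exon 5, unless one lies within the added bases, which were not read here. That stop codon is followed by 88 more bases of exon 5 and by 12 exon junctions. Intron 8 and exons 12 and 16 lie further down the gene. Intron 8 spans 1499 bases, and in a transcript that keeps it the open frame meets a stop codon 3 bases into the intron. Exon 12 has 81 bases, a multiple of 3, and its 2 forms differ by these codons alone: the annotated protein-coding transcripts MAP3K7-204 and MAP3K7-205 have 606 codons with it and 579 without it. Exon 16 has 116 bases, which is not a multiple of 3, and the transcripts that lack it, MAP3K7-202 and MAP3K7-203, have 518 codons with exon 12 and 491 without it. Shown here are the exon junction that the cryptic site breaks, both ends of intron 8, and the alternative exons 12 and 16, all from GENCODE 29 transcripts (GRCh38, minus strand). In the first line exon 4 is in lower case and exon 5 in capitals. In the exon lines the alternative exon is in capitals between 10 bases of each neighbour, and in the intron lines the capitals mark the first and the last 2 bases of the intron. They lie at chr6:90560195-90561641 (with intron 4 between its parts), chr6:90552029-90552058, chr6:90550540-90550579, chr6:90544552-90544632 and chr6:90518447-90518562, in the order of the lines, and the last 2 ranges are those of the exon alone.
Junction of exons 4 and 5: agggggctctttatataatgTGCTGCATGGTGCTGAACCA
Exon 8 and the donor of intron 8: cttgatgcggGTataatccttcttttgagg
Acceptor of intron 8 and exon 9: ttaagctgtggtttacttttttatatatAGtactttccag
Exon 12: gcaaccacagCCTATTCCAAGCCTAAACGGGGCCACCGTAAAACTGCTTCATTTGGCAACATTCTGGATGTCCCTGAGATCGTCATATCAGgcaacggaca
Exon 16: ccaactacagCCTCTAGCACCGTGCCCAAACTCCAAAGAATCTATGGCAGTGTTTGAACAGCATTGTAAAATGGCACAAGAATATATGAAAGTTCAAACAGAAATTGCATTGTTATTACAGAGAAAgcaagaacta

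In the SF3B1 panel, the cryptic acceptor was used in most MAP3K7 transcripts of K700E cells with the control guide, in far fewer of K700E cells with a GPATCH8 guide, and, without the mutation, in 49.5% and 62.5% of those of WT cells with a SUGP1 guide. In K700E cells its use was 18% and 22% in the runs of sgGPATCH8 guide 16 and 26% and 24% in those of guide 17, against 68% and 58% in the runs of the sgRenilla library. The averages were 20% and 25% for the sgGPATCH8 libraries and 63% for the sgRenilla library, a difference of -40.5 points (-46 in run 1 and -35 in run 2). No run of a K700E sgGPATCH8 library came near the control library of the same cells. In WT cells, where the site was little used, it was at 4% and 4% with guide 16 and at 6% and 4% with guide 17, against 9% and 10% in the sgRenilla library. That difference was -5 points, so the GPATCH8 guides lay below the control guide in both genotypes.

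The sgSUGP1 libraries lay on the other side of the control. In K700E cells the site was used in 69% and 73% with guide 3 and in 78% and 74% with guide 4, against 68% and 58% with sgRenilla, a difference of 10.5 points between averages (5.5 in run 1 and 15.5 in run 2). In WT cells the values were 49% and 50% with guide 3 and 67% and 58% with guide 4, against 9% and 10% with sgRenilla. The difference in WT cells was 46.5 points, which is 86.9% of the K700E minus WT difference with the control guide. It was 40 points with guide 3 alone and 53 with guide 4 alone.

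Set against WT cells with the same guide, K700E cells used the site more with each guide target. Its use was 22.5% ± 3.5 in K700E and 4.5% ± 0.71 in WT cells with sgGPATCH8 (SD, n = 2 each, 1 library per guide), a difference of 18 points. It was 73.5% ± 3.5 in K700E and 56% ± 9.2 in WT cells with sgSUGP1 (SD, n = 2 each, 1 library per guide), a difference of 17.5 points. With sgRenilla it was 63% and 9.5% (1 library each), a difference of 53.5 points. The K700E minus WT difference was thus smaller with either target than with the control guide. With 1 library left out it was 15.5 to 20.5 points with the GPATCH8 guides and 11 to 24 points with the SUGP1 guides, where 11 is the value without WT guide 3 and 24 that without WT guide 4. With sgGPATCH8 it was use in K700E cells that lay far below its sgRenilla value, and with sgSUGP1 it was use in WT cells that lay far above. The change of the K700E minus WT difference was -35.5 points with sgGPATCH8 (-42 in run 1 and -29 in run 2) and -36 with sgSUGP1 (-43.5 in run 1 and -28.5 in run 2). Every comparison with the control rests on 1 sgRenilla library per genotype, whose runs differed by 10 points in K700E cells. The runs of a library differed by 0 to 10 points over all 10 libraries, with a median of 3.

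**Figure D1:**
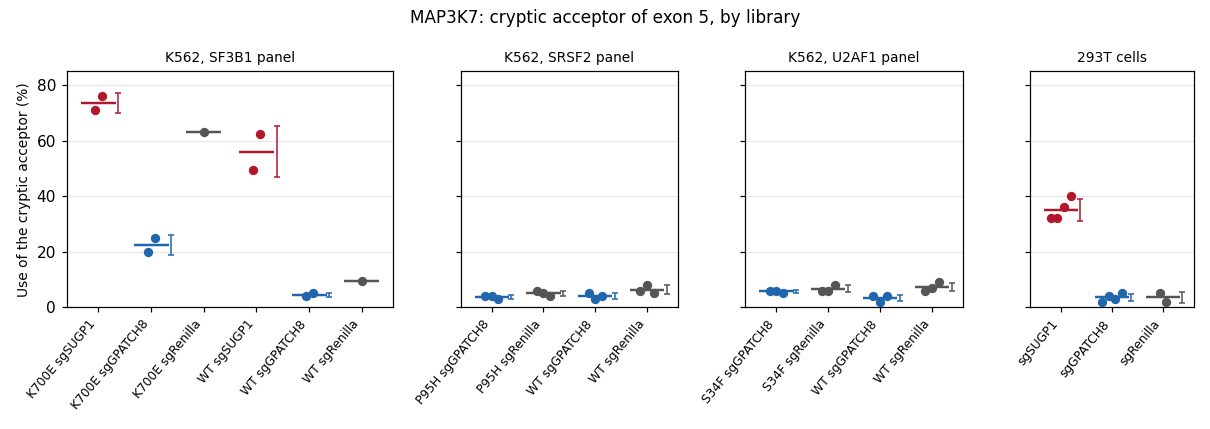
Use of the MAP3K7 cryptic acceptor (percent, vertical axis) in each library of the 4 panels. Points are libraries (runs averaged in the SF3B1 panel), horizontal lines are group means and bars are ± 1 SD where a group has more than 1 library. The K700E sgGPATCH8 libraries sit at 20% and 25%, against 63% in the K700E sgRenilla library, and the 293T sgSUGP1 libraries sit between 32% and 40%, against 2% and 5% with sgRenilla.

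Ordered by level, 5 of the 17 groups of the study had every library at 20% or more and the other 12 had every library at 9.5% or less. K700E sgSUGP1 came first with libraries at 71% and 76%, followed by K700E sgRenilla at 63% and WT sgSUGP1 at 49.5% and 62.5%, and these last groups were not separated by more than the spread of the sgSUGP1 libraries. Next came 293T sgSUGP1 with 32% to 40%, and K700E sgGPATCH8 with 20% and 25%. The 12 low groups ran from 2% to 9.5%. Below the single WT sgRenilla library of the SF3B1 panel at 9.5%, the range of each overlapped with that of the next. The tables of the panels were made separately, so this order across panels was not tested.

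The SRSF2 and U2AF1 panels hold libraries that played no part in the choice of the gene. The site was at 2% to 9% there in all 24 libraries, and no comparison was called for it by limma, beside 0% to 4.84% of all tested events called in the same comparisons. So near 0%, a fall had little room to reach the 5 points that a call needs. In the SRSF2 panel it was at 4%, 4% and 3% in P95H sgGPATCH8 and at 6%, 5% and 4% in P95H sgRenilla libraries, a difference of -1.3 points (log2 ratio -0.38 ± 0.24 SE, limma adjusted p 0.41). With WT SRSF2 it was at 5%, 3% and 4% with sgGPATCH8 and at 6%, 8% and 5% with sgRenilla, a difference of -2.3 points (-0.59 ± 0.24, unadjusted p 0.033, limma adjusted p 0.39). In this panel the event met the filter on group means, some mean of at least 5%, only through the sgRenilla groups. The higher side of both comparisons thus also decided that the event was tested, and their p-values are no independent support. P95H against WT gave -0.3 points with sgGPATCH8 and -1.3 with sgRenilla, and neither passed (limma adjusted p 0.88 and 0.63). In the U2AF1 panel the site was at 4%, 2% and 4% with sgGPATCH8 and at 6%, 7% and 9% with sgRenilla in cells with WT U2AF1. In this comparison 0.0322% of all tested events were called. The difference was -4 points (-1.03 ± 0.29, unadjusted p 0.0044), under the 5 points of the call rule. It also did not pass the adjustment over 43468 events (limma adjusted p 0.64). These p-values come from a fit that does not pair the libraries by replicate number. In cells with S34F it was at 6%, 6% and 5% with sgGPATCH8 and at 6%, 6% and 8% with sgRenilla, a difference of -1 point (limma adjusted p 0.95). S34F against WT gave 2.3 points with sgGPATCH8 and -0.7 with sgRenilla (limma adjusted p 0.38 and 0.96). Without the replicate 1 libraries the U2AF1 WT groups averaged 3% with sgGPATCH8 and 8% with sgRenilla (n = 2 each, limma adjusted p 0.56).

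In 293T cells, which carry no SF3B1 mutation by their labels, use of the cryptic acceptor rose with the SUGP1 guides, and with the GPATCH8 guides its mean equalled that of the control guide. The site was used in 32% and 36% of transcripts with SUGP1 guide 3 and in 32% and 40% with guide 4, against 5% and 2% with sgRenilla. All 4 sgSUGP1 libraries were above both control libraries, with means of 35% ± 3.8 (SD, n = 4) and 3.5% ± 2.1 (SD, n = 2). The difference of 31.5 points was called (log2 ratio 3.64 ± 0.35 SE, limma adjusted p 0.043). It was the 1 MAP3K7 event called of 4 tested in that comparison, in which 0.0452% of all tested events were called. In this panel the event met the filter on group means only through its high mean with sgSUGP1. The group compared thus also decided that the event was tested. The call was lost when any 1 of the 10 libraries was left out, with a log2 ratio of 3.12 to 4.17 and an adjusted p of 0.10 to 0.26. Against the sgGPATCH8 libraries, which stood at 2% and 3% with guide 16 and at 4% and 5% with guide 17, the sgSUGP1 libraries were 31.5 points higher (3.61 ± 0.28, limma adjusted p 0.0041), and this call stood without any 1 library (adjusted p 0.01 to 0.036). The rise with sgSUGP1 was known from earlier work on these files and is no independent support. sgGPATCH8 against sgRenilla gave 0 points (0.04 ± 0.35, limma adjusted p 0.99), in a comparison in which 0.0731% of all tested events were called. With the control mean at 3.5%, a fall with sgGPATCH8 had little room to be seen.

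Intron 8 was spliced in 91% to 99% of transcripts over all 54 columns. It moved with the SUGP1 guides in 293T cells, where it was spliced in 92% and 92% with guide 3 and in 92% and 91% with guide 4. The sgGPATCH8 libraries were at 98%, 97%, 97% and 97% and both sgRenilla libraries at 97%. The sgSUGP1 libraries were thus below all others, and the share of all events that separated so was not counted. The difference from sgGPATCH8 was -5.5 points and was called (log2 ratio -1.39 ± 0.19 SE, limma adjusted p 0.03). With the cryptic acceptor this made 2 of the 4 tested MAP3K7 events, in a comparison in which 0.746% of all tested events were called. Both events met the filter on group means in this panel only through the sgSUGP1 group, so that count is no independent support. It was no longer called when any 1 library was left out (adjusted p 0.066 to 0.13). The difference from sgRenilla was -5.2 points (-1.29 ± 0.24, unadjusted p 9e-04) and was not called (limma adjusted p 0.24). Without the filter on group means, which drops events near 0% or 100%, it was (adjusted p 0.02).

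In the SF3B1 panel every group mean of intron 8 was above 95%, so it was not tested there. Averages of runs were 95% and 95.5% in the K700E sgSUGP1 libraries and 95.5% in both WT sgSUGP1 libraries, against 97.5% in K700E and 98% in WT cells with sgRenilla. The sgSUGP1 libraries stood at 92% to 94% in run 2, below both sgRenilla libraries at 97%, and at 97% to 99% in run 1, where they overlapped with the sgRenilla libraries at 98% and 99%. The K700E sgGPATCH8 libraries also split by run, with 99% in both in run 1 and 94% and 95% in run 2. In the SRSF2 panel intron 8 was spliced in 96.3% ± 0.58 of transcripts with P95H and in 94.3% ± 0.58 with WT in sgGPATCH8 cells, and in 95% with P95H and 93.3% ± 0.58 with WT in sgRenilla cells (SD, n = 3 each). Neither difference passed (limma adjusted p 0.10 and 0.36). In the U2AF1 panel its group means were 95.3% to 96.3%, and it was not tested there either.

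Exon 12, whose inclusion was 4% to 31% over all columns, was highest in cells with both U2AF1 S34F and a GPATCH8 guide. U2AF1 binds the AG at the 3' splice site, and S34F is known to change which bases beside it are favoured. Inclusion was 30%, 29% and 31% in S34F sgGPATCH8 libraries and 16%, 14% and 15% in WT sgGPATCH8 libraries, a difference of 15 points (log2 ratio 1.23 ± 0.19 SE, unadjusted p 4.5e-05). The 2 groups lay far apart, yet the difference fell just short of the call over all events (limma adjusted p 0.07). It was called without the filter on group means (adjusted p 0.0051) and with the replicate number as a block. The deviations of same-numbered libraries of these groups correlated at 0.24, 0.08 and 0.09. Leaving out any 1 library gave an adjusted p of 0.075 to 0.27.

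With the control guide, exon 12 was included in 22%, 19% and 20% of transcripts in S34F and in 14%, 15% and 13% in WT libraries. The difference was 6.3 points (0.62 ± 0.19, unadjusted p 0.0075, limma adjusted p 0.30, without the replicate number as a block). Within S34F cells sgGPATCH8 libraries were 9.7 points above sgRenilla libraries (0.73 ± 0.19, unadjusted p 0.0028, limma adjusted p 0.39), and within WT cells 1 point above (limma adjusted p 1). The interaction, the change of the S34F minus WT difference with sgGPATCH8, was 8.7 points (0.62 ± 0.27, unadjusted p 0.042, limma adjusted p 1). Without the replicate 1 libraries the means were 30% in S34F sgGPATCH8, 19.5% in S34F sgRenilla, 14.5% in WT sgGPATCH8 and 14% in WT sgRenilla (n = 2 each), and S34F against WT with sgGPATCH8 had an adjusted p of 0.14. In the U2AF1 panel 0 of 15 tests on 3 MAP3K7 events were called, and 6 had an unadjusted p under 0.05. Of all 43468 tested events, 1911 to 5059 per comparison had such a p. The 15 tests share libraries, so they are not separate observations. The share of all tested events called there was 0.023% for S34F against WT with sgGPATCH8, 0.0023% with sgRenilla, 0.0345% for sgGPATCH8 against sgRenilla in S34F, 0.0322% in WT and 0% for the interaction, where 1911 events had an unadjusted p under 0.05. With the replicate number as a block, the share was 0.0345% for S34F against WT with sgRenilla and 0.0575% for sgGPATCH8 against sgRenilla in WT, with no MAP3K7 event called in either.

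**Figure D2:**
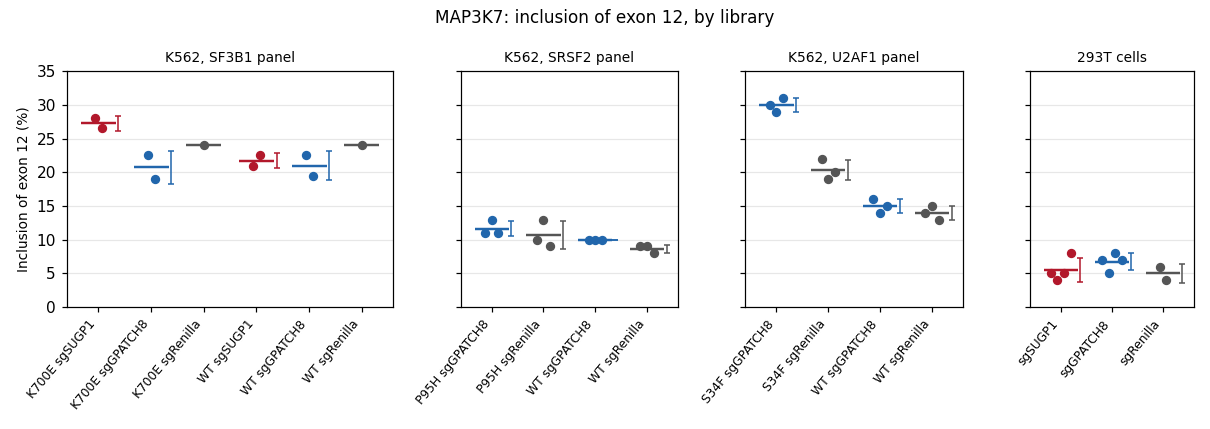
Inclusion of MAP3K7 exon 12 (percent, vertical axis) in each library of the 4 panels, with points, lines and bars as libraries, group means and ± 1 SD (runs averaged in the SF3B1 panel). The U2AF1 S34F sgGPATCH8 libraries sit at 29% to 31%, above the S34F sgRenilla libraries at 19% to 22% and the WT libraries at 13% to 16%.

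The level of exon 12 differed more between panels than within most of them. With the control guide and no mutation it was 24% in the WT library of the SF3B1 panel, 14% ± 1 with WT U2AF1 and 8.67% ± 0.58 with WT SRSF2 (SD, n = 3 each), all in K562 cells, and 5% ± 1.4 in 293T cells (SD, n = 2). These are levels from separate tables, and their differences were not tested. In the SF3B1 panel the widest difference among the comparisons of 2 groups was 5.5 points, between K700E sgSUGP1 libraries at 26.5% and 28% and WT sgSUGP1 libraries at 21% and 22.5%, and it did not pass (0.42 ± 0.20, limma adjusted p 0.34). In the SRSF2 panel group means were 11.7% with P95H and 10% with WT in sgGPATCH8 cells, and 10.7% with P95H and 8.67% with WT in sgRenilla cells, and neither difference passed (limma adjusted p 0.49 and 0.48). In 293T cells exon 12 stood at 5%, 5%, 4% and 8% with sgSUGP1, at 5% to 8% with sgGPATCH8 and at 4% and 6% with sgRenilla, with no call.

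Exon 16 was included in 87% to 98% of transcripts. In the SRSF2 panel it was included in 94%, 94% and 95% in P95H sgGPATCH8 libraries, against 97%, 98% and 98% in P95H sgRenilla libraries. SRSF2 is a protein that binds exons and promotes their inclusion. The difference of -3.3 points passed the adjustment (log2 ratio -1.06 ± 0.22 SE, limma adjusted p 0.023) but was under the 5 points of the call rule. In this panel the exon met the filter on group means only through P95H sgGPATCH8 (mean 94.3%), the only group at 95% or less. The low value of that group thus also decided that the exon was tested, and its p-values are no independent support. Leaving out 1 library gave an adjusted p of 0.024 to 0.08. In cells with WT SRSF2 the exon was at 97%, 96% and 97% with sgGPATCH8 and at 95% to 97% with sgRenilla (0.20 ± 0.22, limma adjusted p 0.80). The interaction was -4 points (-1.26 ± 0.31, unadjusted p 0.0022, limma adjusted p 0.16). In this panel 0 of 20 tests on 4 MAP3K7 events were called, and 7 had an unadjusted p under 0.05. Of all 43963 tested events, 4944 to 9271 per comparison had such a p. The 20 tests share libraries, so they are not separate observations. The share of all tested events called was 4.84% for sgGPATCH8 against sgRenilla in P95H, 0.491% in WT, 4.06% for P95H against WT with sgGPATCH8, 1.08% with sgRenilla and 0.0614% for the interaction.

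In the other panels exon 16 did not separate the groups. In the U2AF1 panel its values went with the replicate number: the 4 replicate 1 libraries, 1 of each group, were at 89% to 92%, and the 8 libraries of replicates 2 and 3 at 94% to 98%. In 293T cells it was at 90.2% ± 2.5 with sgSUGP1 (SD, n = 4), at 93.5% ± 1.3 with sgGPATCH8 (SD, n = 4) and at 92% ± 1.4 with sgRenilla (SD, n = 2). Of the 20 tests on exons 12 and 16 in the SF3B1 panel 0 were called, and 0 had an unadjusted p under 0.05. There the share of all tested events called was 0.681% for K700E against WT with sgGPATCH8, 0.197% with sgSUGP1, 0% with sgRenilla, where 6582 events had an unadjusted p under 0.05, and 3.35% averaged over the guides. For sgGPATCH8 against sgRenilla it was 0.0138% in K700E and 0.0059% in WT cells, and for sgSUGP1 against sgRenilla 0.0944% and 0.0197%. It was 0.0295% for the interaction with sgGPATCH8 and 0% for that with sgSUGP1, where 4713 events had an unadjusted p under 0.05. Over the 6 groups in which the mean use of the cryptic acceptor ran from 4.5% to 73.5%, mean inclusion of exon 12 ran from 20.8% to 27.2% and that of exon 16 from 93% to 94.8%.

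**Figure D3:**
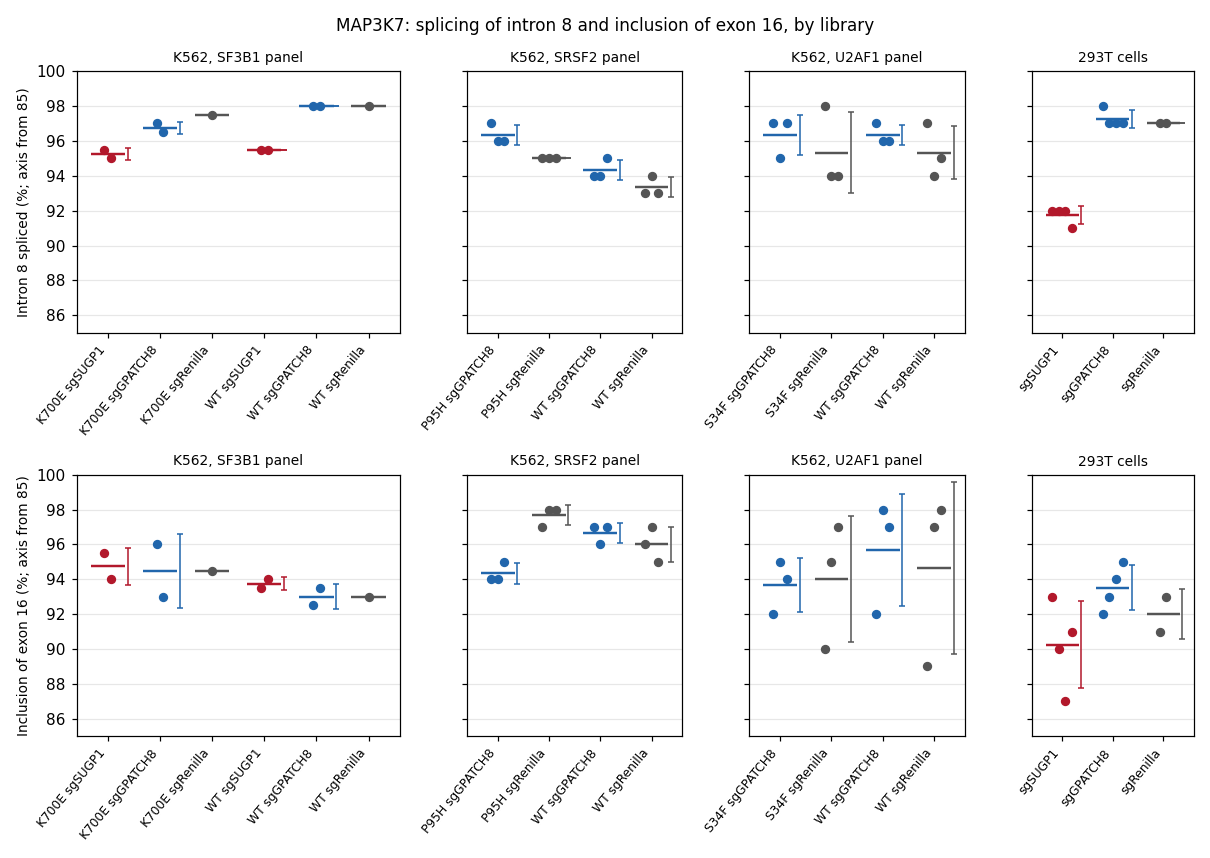
Share of transcripts with intron 8 spliced (top row) and with exon 16 included (bottom row), in percent on an axis that starts at 85, for each library of the 4 panels, with group means and ± 1 SD. In 293T cells intron 8 sits at 91% to 92% with sgSUGP1, against 97% with sgRenilla, and in the SRSF2 panel exon 16 sits at 94% to 95% in P95H sgGPATCH8, against 97% to 98% in P95H sgRenilla libraries.

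The remaining events hardly occurred. An alternative donor of exon 5, 4 bases into the intron (junction from 91266343 to 91269791, beside the usual one to 91269795), and an exon between exons 1 and 2 (junction from 91284399 to 91296483) were each at 0% or 1% in all 54 columns. Neither passed the filter on group means in any panel. Of the 6 events, 4 were tested in the SRSF2 and 293T panels and 3 in the U2AF1 panel, and 2 of the SF3B1 panel have a test beside the description of the cryptic acceptor.

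Among 4701 acceptor events with a pair of sites and a range of at least 20 points over the 10 libraries of the SF3B1 panel, those most like the MAP3K7 cryptic acceptor were in HSF4, MED13L, STAU2, MFF, CDK4, VEZT, METTL5, SMCO4, TUT4 and PHF21A. Pearson's r with MAP3K7 was 0.97 for HSF4, which encodes a heat shock transcription factor, and 0.93 to 0.95 for the others. It is a description over 10 libraries that share their guides, genotypes and runs. In 7 of the 10 the sites lay 12 to 18 bases apart, as in HSF4 with 14, and the others were MED13L with 36, MFF with 117 and CDK4 with 3. HSF4 used its upstream site in 29.5% with sgGPATCH8 and 45.5% with sgRenilla in K700E cells, and in 41.8% with sgSUGP1 and 8.5% with sgRenilla in WT cells. STAU2, which encodes an RNA-binding protein of transport granules, was at 20.5% with sgGPATCH8 and 29% with sgRenilla in K700E cells, and at 29.5% with sgSUGP1 and 3% with sgRenilla in WT cells. CDK4, the kinase of the G1 phase, was at 35.2% and 47.5% in the same K700E groups and at 62.2% and 21% in the same WT groups.

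None of these acceptors had as wide a gap between guides as MAP3K7 in K700E cells, where sgGPATCH8 minus sgRenilla was -40.5 points for MAP3K7 and -22 to -3 points for the 10. MAP3K7, chosen for these values, also had the widest K700E minus WT difference with sgRenilla, 53.5 points against 10.5 to 37 in the 10. It thus had more points to lose. The K700E minus WT difference was smaller with sgGPATCH8 than with sgRenilla in MAP3K7 and in 9 of the 10, from 7.8 against 15.5 points in MED13L to 22 against 37 in HSF4. In PHF21A it was 7.8 against 24 points, beside 18 against 53.5 in MAP3K7. In VEZT it was larger, 26 with sgGPATCH8 against 19 with sgRenilla. These events were chosen by their likeness to MAP3K7 in the same libraries, so the pattern they share is not a result. In 293T cells, which the choice did not use, all 10 were higher with sgSUGP1 than with sgRenilla, by 3.7 points in MFF to 33.7 in CDK4, against 31.5 in MAP3K7. The share of all compared acceptors that were higher there was not counted, so no background stands beside the 10, and these differences were not tested.

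**Figure D4:**
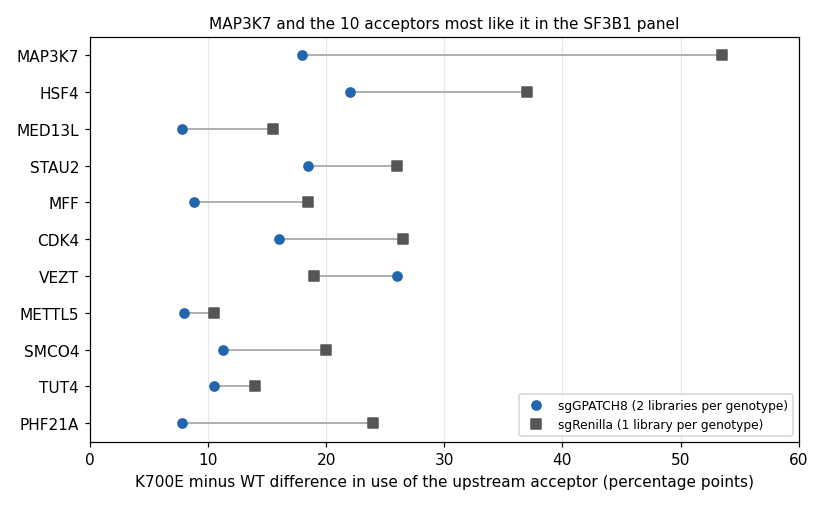
K700E minus WT difference in use of the upstream acceptor (percentage points) in the SF3B1 panel for MAP3K7 and the 10 acceptors most like it, with blue circles for sgGPATCH8 libraries (2 per genotype) and grey squares for sgRenilla libraries (1 per genotype). MAP3K7 has the widest gap, 18 points against 53.5, and VEZT is the one acceptor whose sgGPATCH8 value lies above its sgRenilla value.

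Of 32 genes of the TAK1 pathway, 29 had a tested event in some panel. In the SF3B1 panel 28 of them had 147 tested events, and of the 10 comparisons 2 held a call by limma, 1 each (0.68%, beside 0.681% and 3.35% of all events). The intron of NLK, a kinase that TAK1 activates, was spliced in 19.5% of K700E and in 38.8% ± 0.35 of WT transcripts with sgGPATCH8 (n = 2 each, -19.2 points, limma adjusted p just under 0.05). Inclusion of an exon of MAPK9, which encodes JNK2 (junction from 179707036 to 179707440 on chromosome 5, hg19), was 9.4 points higher in K700E than in WT cells averaged over the guides, with libraries at 23% to 33% in K700E and at 16% to 21% in WT cells (limma adjusted p 0.041). In 293T cells 1 of 132 events was called, for sgSUGP1 against sgGPATCH8 (0.758%, beside 0.746% of all events). It was an acceptor of MAP2K7, a kinase that activates JNK. It was used in 9% ± 1.4 with sgSUGP1 and in 1.5% ± 0.58 with sgGPATCH8 (SD, n = 4 each, limma adjusted p 0.016).

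In the SRSF2 panel the pathway had 132 tested events in 27 genes. For sgGPATCH8 against sgRenilla in P95H cells 6 were called, 3 higher and 3 lower (4.55%, beside 4.84% of all events). Inclusion of another MAPK9 exon (junction from 179714067 to 179718848) was 43.7% ± 3.1 with sgGPATCH8 and 21% ± 1.7 with sgRenilla (SD, n = 3 each, limma adjusted p 0.0057). An intron of IKBKB, a catalytic subunit of IKK, was spliced in 60.7% ± 1.5 with sgGPATCH8 and in 39% ± 2.6 with sgRenilla (SD, n = 3 each, limma adjusted p 0.0051). For P95H against WT 7 were called with sgGPATCH8, 5 higher and 2 lower (5.3%, beside 4.06%). Among them the MAPK9 exon of the SF3B1 panel was included in 22.7% ± 1.5 with P95H and 35% ± 3.6 with WT (SD, n = 3 each, -12.3 points, limma adjusted p 0.013). The other lower event was also of MAPK9, with a junction from 179707035 to the same 179707440 (-10 points), so the 2 lower events are not separate observations. With sgRenilla 4 were called, 1 higher and 3 lower (3.03%, beside 1.08%). There an exon of IRAK4, a kinase of IL-1 and Toll-like receptors, was included in 39.3% ± 4 with P95H and 57% ± 4.6 with WT, and an intron of NFKBIA, the inhibitor of NF-kappaB, was spliced in 93.3% ± 0.58 and 86% ± 2 (SD, n = 3 each, limma adjusted p 0.047 and 0.041). For sgGPATCH8 against sgRenilla in WT cells 2 were called, both higher (1.52%, beside 0.491%). In the U2AF1 panel 0 of 126 pathway events were called by limma in the 5 comparisons, beside 0% to 0.0345% of all events. At an unadjusted p under 0.05 there were 4 to 13 of the 126 per comparison, beside 1911 to 5059 of all 43468 tested events.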

How the data were processed

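The authors deposited, for each splicing event and library, the fraction of the isoform listed first, with 2 decimals, as read from the values. It is the upstream acceptor, the included exon, the spliced intron or the shorter intron. The submitters' processing notes name TopHat, TopHat2 2.0.8b, Bowtie and RSEM 1.2.4 and build hg19. What each tool did, and how reads became fractions, is not stated in the labels or files. Stranded libraries were made from polyadenylated RNA, per the labels' protocols. Each of the 4 files held 110818 events, 2 of them without coordinates. The 55 samples had 54 columns, since SRSF2 P95H sgGPATCH8 replicate 3 has 1 column for its pair of runs, and made 44 libraries. Whether the runs of the SF3B1 panel repeat 1 library is not settled. Gene names came from intron lengths matched to GENCODE 29, which named 102389 events (92.4%). No coordinate was converted.

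Events with a value in every library, some group mean of at least 5% and some of at most 95% were fitted with R 4.3.3 and limma 3.58.1 on the log2 ratio with 0.01 added to each side, with a mean per group (per guide in 293T, where p-values leave out differences between guides) and a trended prior variance. A group of 1 library took its spread from the other groups. This tested 50823, 43963, 43468 and 46493 events in the SF3B1, SRSF2, U2AF1 and 293T panels. The fit was tested on simulated data. Columns held values for 72.4% to 78.4% of events.

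Named here are every MAP3K7 event, the 10 acceptors most correlated with its cryptic acceptor, and at most 5 called genes of a TAK1 pathway list per comparison. Members and lists were chosen with earlier results of these data known. Replicate numbers paired the libraries for 2 comparisons, S34F against WT with sgRenilla and sgGPATCH8 against sgRenilla with WT U2AF1, where same-numbered libraries deviated together (correlations 0.12 to 0.40). In S34F against WT with sgGPATCH8 they did so less, at 0.24, 0.08 and 0.09, and in sgGPATCH8 against sgRenilla with S34F at 0.27, 0.09 and 0.09. In the other panels the correlations were -0.05 to 0.03, and there the numbers are only names.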

Additional observations from a re-analysis of the deposited data

Results flagged for a closer look

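For 4 pairs of an event and a 293T group of 4 libraries, 1 library lay apart from the other 3. Intron 8 was spliced in 91% in 1 sgSUGP1 library and 92% in the others, and in 98% in 1 sgGPATCH8 library and 97% in the others. The alternative donor of exon 5 and the exon between exons 1 and 2 were each at 1% in 1 sgGPATCH8 library and at 0% in the others. Each gap is 1 step of values with 2 decimals. Chance flags about 1 in 20 groups.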

How the results depend on the processing

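The depth behind each fraction is unknown, SF3B1 comparisons with the control rest on 1 sgRenilla library per genotype (leaving it out gives no value), and 293T p-values rest on 2 control libraries. No called MAP3K7 value changed direction under the alternatives run; none were run for the pathway events or for the direction of the most like acceptors. For S34F against WT with sgGPATCH8, 1 MAP3K7 event was called, in place of 0, without the filter on group means and with the replicate block (exon 12, adjusted p 0.032 with the block). For 293T sgSUGP1 against sgRenilla the main count of 1 became 2 without the filter, 0 with the replicate block (adjusted p 0.13) and 0 without any 1 library; against sgGPATCH8 the count of 2 became 1 with the block (intron 8 adjusted p 0.071) and 1 without any 1 library. The block moved the count of all events called for S34F against WT with sgGPATCH8 from 10 to 378. For sgGPATCH8 against sgRenilla in S34F the count moved from 15 to 32. Same-numbered libraries correlated at 0.24, 0.08 and 0.09 in the first comparison and at 0.27, 0.09 and 0.09 in the second. The block changed no other MAP3K7 call. Without replicate 1 libraries the U2AF1 panel had 0 called events in each comparison. With run 1 or run 2 alone, the K700E minus WT difference of the cryptic acceptor with sgRenilla was 59 or 48 points, sgGPATCH8 minus sgRenilla in K700E -46 or -35, and the interactions -42 or -29 with sgGPATCH8 and -43.5 or -28.5 with sgSUGP1. Leaving out 1 library gave 11 to 24 points for K700E minus WT with sgSUGP1, 40 to 53 for sgSUGP1 minus sgRenilla in WT and -42.5 to -29.5 for the interaction with sgSUGP1. Exon 16 in P95H, sgGPATCH8 against sgRenilla, had an adjusted p of 0.056 with the block. Of the 10 most like acceptors, 5 stayed among the 10 by Spearman correlation, 6 with run 1 alone and 5 with run 2 alone. The cause of these changes was not tested.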
